A study of Mus musculus with 9 samples.

Results

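B2m encodes beta-2-microglobulin, the small subunit shared by class I molecules, which present antigen on the cell surface. It was measured by the custom probe, 1 of 60915 probes, that carries the accession NM_009735.3, and that probe was printed as 20 spots on each array. The probe was chosen by its accession and not by its signal, and whether unnamed probes on the array also detect B2m is not known from the files. B2m is a protein-coding gene on mouse chromosome 2 that lies inside the annotated span of another gene, Patl2. Total RNA of mouse liver was read on 1-colour arrays (Cy3 dye), 1 array per sample, which cover messenger RNAs and long non-coding RNAs. The 3 groups held 3 samples each: livers of embryos aged 17.5 days, livers of adult male mice aged 2 months, and liver tumours of male mice aged 1 year that had been given DEN (diethylnitrosamine, a liver carcinogen). The series looked for oncofetal transcripts, those active both before birth and in the tumour. The labels used here name no strain or litter and no sex of the embryos, and the adult mice were younger than the tumour-bearing ones, so age, carcinogen and tumour tissue cannot be told apart. Replicates are called independent and no animal is named, so the p-values reflect only how these samples vary, which may be technical.

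Beta-2-microglobulin binds the heavy chain of class I molecules, and without it the heavy chain does not fold and reach the cell surface. The assembled complex shows peptides from inside the cell to CD8 T cells and is also read by natural killer cells. The same light chain pairs with relatives of the classical heavy chains, among them Cd1d1, Mr1, the neonatal Fc receptor Fcgrt and the iron regulator Hfe. Interferons and NF-kappa B raise transcription of the gene. The liver before birth is a site of blood formation, while the adult liver consists mainly of hepatocytes.

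The stretch of DNA just before the start of the gene is shown because the measured transcript begins at its end and because it holds binding motifs of the interferon and NF-kappa B pathways. It comprises the 250 bases before the RefSeq start (GRCm38.p6, chr2:122147437-122147686, plus strand), and the arrays themselves were designed on another build, mm9. Capitals mark matches to 4 motifs, searched on both strands and chosen with this sequence in view.
B2m promoter: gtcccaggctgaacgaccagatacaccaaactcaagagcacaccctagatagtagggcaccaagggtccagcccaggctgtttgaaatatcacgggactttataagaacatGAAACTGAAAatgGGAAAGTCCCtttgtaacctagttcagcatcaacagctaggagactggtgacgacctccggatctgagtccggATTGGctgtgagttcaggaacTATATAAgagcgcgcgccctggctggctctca
The first match is GAAA and GAAA spaced 2 bases apart, the core of interferon-stimulated response elements, which lies 139 to 130 bases before the start and occurs in 2.98% of 32851 mouse promoter windows of this length. The second is the kappa B consensus on the minus strand, 126 to 117 bases before the start, which occurs in 3.9% of windows. A CCAAT box on the minus strand (53 to 49 bases before the start) and the TATA-like TATANAA (32 to 26 bases before it) occur in 33.8% and 10.4% of windows. No motif overlaps another. These matches describe the letters, and binding of a factor was not measured here.

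The signal of B2m stood far above background on every array. All 20 spots were well above background on each of the 9 arrays, and 0 spots were saturated. Median processed signals of the unmarked spots were 60588, 73886 and 55042 intensity units in fetal liver replicates 1 to 3. They were 118512, 131303 and 141849 in adult liver, and 124959, 320791 and 269039 in liver cancer. On each array this was at least 11781 times the median of 300 negative control spots (3.85 to 5.23 intensity units). The brightest B2m spot reached 44.8% of the saturation value. Unscaled signals were thus lowest in fetal liver, and liver cancer replicates 2 and 3 stood apart at the top.

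Those replicates also stood apart as whole arrays. They came from a second scan, whereas liver cancer replicate 1 shared the first scan with all fetal and adult arrays. Their 75th percentiles over all probes were 409 and 355 intensity units, against 87.8 to 188 on the 7 arrays of the first scan. Probes well above background made up 69.3% and 67.8% of probes on them and 40.5% to 54.8% on the others, and 21 and 10 of their 300 negative control spots were marked well above background, against 0 to 3 in the first scan. The tests of B2m, its ratios to other genes and its values by printed position are therefore given for liver cancer replicate 1 alone (the first scan) or without it as well.

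**Figure D1:**
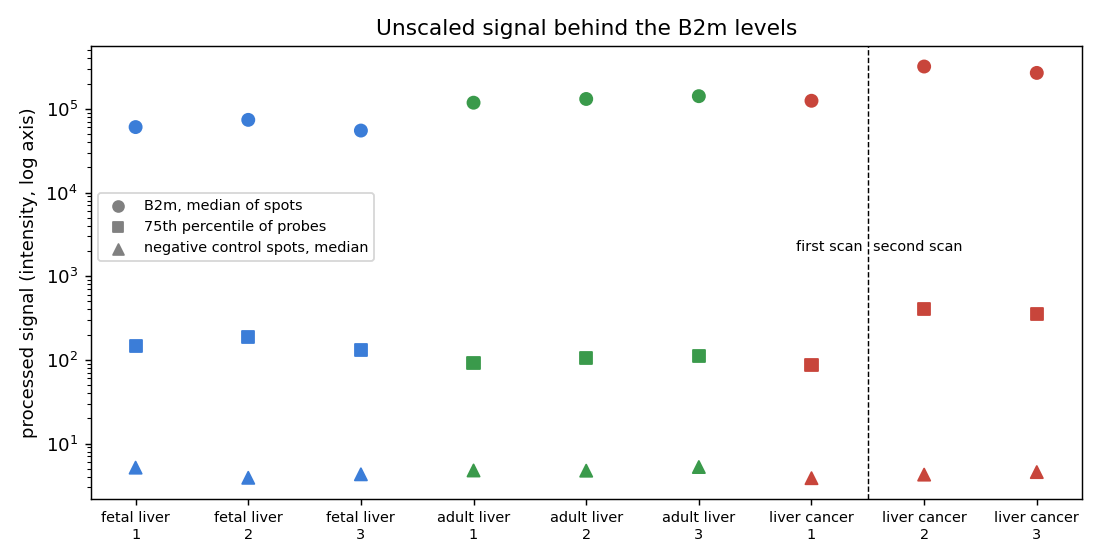
Processed signal in intensity units on a log axis for each array: the median of the unmarked B2m spots (circles), the 75th percentile over all probes (squares) and the median of the negative control spots (triangles). Liver cancer replicates 2 and 3, from the second scan, had both the brightest B2m signals (320791 and 269039) and the highest 75th percentiles (409 and 355), while negative controls lay between 3.85 and 5.23 throughout.

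Levels below are log2 processed signal, averaged over unmarked spots, minus the array's 75th percentile. B2m stood at 8.70, 8.62 and 8.70 in the 3 fetal livers. Adult livers gave 10.33, 10.30 and 10.32. Liver cancer gave 10.45, 9.62 and 9.60. All fetal arrays were lower than all others. Liver cancer overlapped adult liver, since replicate 1 was the highest array of the study and replicates 2 and 3 lay below every adult array.

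The spots agreed closely within each array. Their SD was 0.05 to 0.11 log2, a coefficient of variation of the processed signal of 3.65% to 7.88%. Of 180 B2m spots, 160 were used, and 20 carried an outlier mark and were left out. On adult replicate 1, 10 of the 20 spots were marked, and with them that array stood at 10.29 in place of 10.33. A single marked spot on liver cancer replicate 2 read 70256 intensity units, where the 19 others read 290924 to 349003, and keeping it lowered that array to 9.51. The lowest unmarked adult spot (10.03) lay 1.1 log2 above the highest unmarked fetal spot (8.93). The lowest unmarked liver cancer spot (9.43) also lay above every unmarked fetal spot. Spots on 1 array share 1 RNA sample, so they measure the precision of the array and add no replicates.

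**Figure D2:**
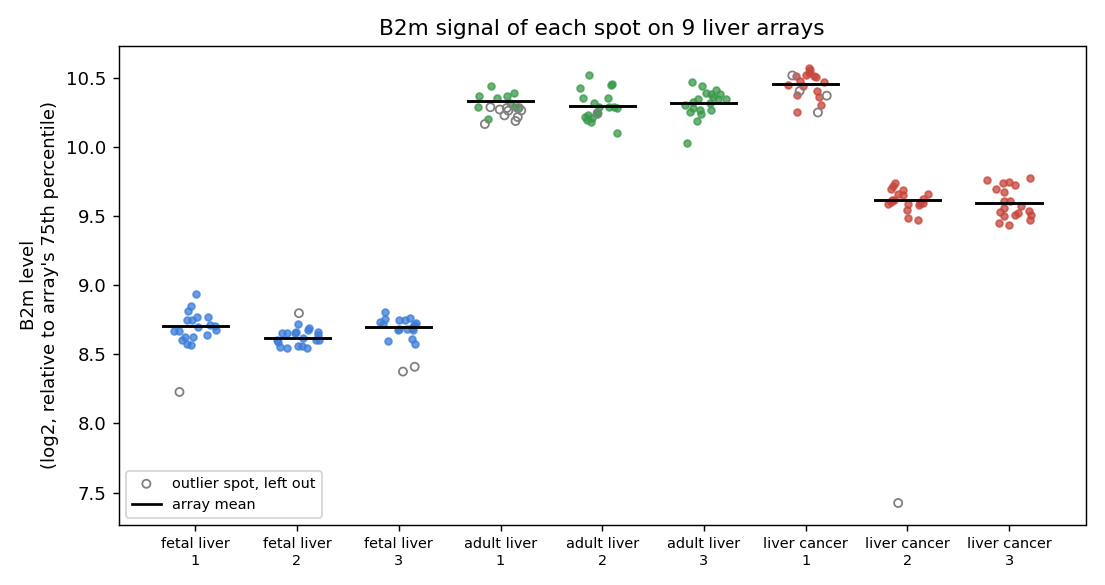
B2m level of each of the 20 spots per array, as log2 processed signal minus the array's 75th percentile, by group and replicate; filled points were used, open points were marked as outliers and left out, and bars are array means. Fetal spots in use lie at or below 8.93, adult spots in use at or above 10.03, and liver cancer splits between replicate 1 (10.45) and replicates 2 and 3 (9.62 and 9.60).

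The first comparison is of the developing with the mature organ. The level of B2m was 8.68 ± 0.05 (SD, n = 3) in fetal liver and 10.31 ± 0.02 (SD, n = 3) in adult liver. It was lower in fetal liver by 3.12-fold, with a 95% interval of 2.11-fold to 4.59-fold (log2 difference -1.64 ± 0.25 (SE), limma adjusted p = 0.000495). A call required an adjusted p below 0.05 and at least a 2-fold difference. Of 34103 tested probes, 39.6% were called in this comparison and 18.4% were called lower, and the groups did not overlap on 66.1%. With normexp background correction 17.4% were called and 8.94% were called lower. The median difference of all tested probes was -0.02, and 11.9% of probes had a lower difference than B2m. The arrays of both groups belong to 1 scan. Fitted on that scan alone, the difference kept its value with an SE of 0.11, since the SE over all 9 arrays takes in the more variable liver cancer group.

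The difference also appeared at each printed position. Computed position by position, with marked spots left out, the fetal minus adult difference ran from -1.82 to -1.49 over the 20 positions, with a median of -1.64. At all 20 it was at least 2-fold. In the unscaled signal, the mean log2 processed signal was 15.93 ± 0.22 (SD, n = 3) in fetal liver and 16.99 ± 0.13 (SD, n = 3) in adult liver. Scaling therefore changed the size of the difference and left its direction. With the groups' tissue taken in bulk, fewer cells that make B2m and less B2m RNA per cell cannot be told apart.

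Markers of the cell types that the tissue could hold were mostly unnamed on this array. Of 7 erythroid markers, 1 had a probe with an accession, Tfrc, the transferrin receptor that immature red cells use to take up iron. The fetal level of Tfrc was 9.74 ± 0.05 (SD, n = 3), the adult level 6.75 ± 0.04 and the liver cancer level 8.04 ± 0.54. It thus moved opposite to B2m between fetal and adult liver (2.99 against -1.64), and its part in the B2m difference was not tested. Of 6 hepatocyte markers only Gk, glycerol kinase, had such a probe. Gk moved in the direction of B2m, with a fetal minus adult difference of -3.45, which was called. The liver cancer group differed in Gk by -0.50 from the adult group, not called, and by 2.96 from the fetal group, called. The part of Gk in the B2m differences was not tested either. Among 6 leukocyte, 3 endothelial and 3 hepatoblast markers, 0 had a probe with an accession. The labelled tissue could therefore not be checked against its defining markers such as Alb. Among 33 genes of class I antigen presentation, including the heavy chains H2-K1 and H2-D1, the peptide transporter subunits Tap1 and Tap2 and the immunoproteasome subunits Psmb8 and Psmb9, B2m alone had a named probe, so the rest of the pathway was not analysed here.

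The second comparison is of the tumour with the organ before birth. B2m was higher in liver cancer, at 9.89 ± 0.49 (SD, n = 3) against 8.68 ± 0.05. The difference was 2.32-fold with a 95% interval of 1.57-fold to 3.42-fold (log2 difference 1.21 ± 0.25 (SE), limma adjusted p = 0.00283). In this comparison 42.4% of tested probes were called and 20.4% were called higher, the groups did not overlap on 58.3%, and 81.1% of probes had a lower difference than B2m. With normexp 30.1% were called and 13.3% were called higher. At each of the 20 printed positions the mean level was higher in liver cancer, from 0.90 to 1.37. The 4 positions under 2-fold are the 4 where the spot of liver cancer replicate 1 was marked and left out. Taken array by array, the 16 usable positions of replicate 1 lay 1.63 to 1.92 above the fetal mean of the same position. The 19 of replicate 2 lay 0.79 to 1.08 above it and the 20 of replicate 3 lay 0.71 to 1.12 above it, so that replicate 1 stood above the other two at every usable position.

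The size of this difference rested on which liver cancer arrays were used. The first scan holds only replicate 1 of liver cancer, which is then assumed to vary like the other groups, and there the difference was 1.78 ± 0.15 (SE, limma adjusted p = 0.000188). Without liver cancer replicate 1 it was 0.93 (limma adjusted p = 0.000269), below the 2-fold minimum. In that fit all liver cancer arrays are from the second scan and all fetal arrays from the first, so scan and group cannot be told apart. The difference over all arrays also fell just short of 2-fold under array-median scaling and under cyclic loess (0.99 in both cases). It was larger by over 1.5 times with normexp background correction (1.84) and when scaled to the mean of the other 14 named probes (1.98).

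The third comparison is of the tumour with the normal adult organ. The level was 9.89 ± 0.49 in liver cancer and 10.31 ± 0.02 in adult liver (SD, n = 3 each). The difference of -0.43 ± 0.25 (SE) did not pass the test (limma adjusted p = 0.219), and its 95% interval ran from -0.99 to 0.13. A fall of up to 1.98-fold and a rise of up to 1.1-fold both lie within that interval. Of the tested probes 24.1% were called and 12.5% were called lower, and the groups did not overlap on 42.6%. The share of probes with a lower difference than B2m was 31.4%. Array-median scaling gave 5627 probes called lower and 2782 higher, against 4247 and 3958 here, and moved the median difference of all tested probes from 0.01 to -0.27. The spread of B2m between the liver cancer arrays (0.49) was close to the median spread of all tested probes in that group (0.47).

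No direction can be given for this comparison. Within the first scan liver cancer replicate 1 lay 0.14 above adult liver, and with scan as a block the difference took the same value. It was 0.0072 under quantile normalization and 0.10 with normexp, where the median of all tested probes lay at -0.27. Without liver cancer replicate 1 it was -0.71 (limma adjusted p = 0.00172), which passed on the adjusted p and missed the 2-fold minimum. In that fit all liver cancer arrays are from the second scan and all adult arrays from the first, so scan and group cannot be told apart. Leaving out replicate 2 or replicate 3 gave -0.29 and -0.28.

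**Figure D3:**
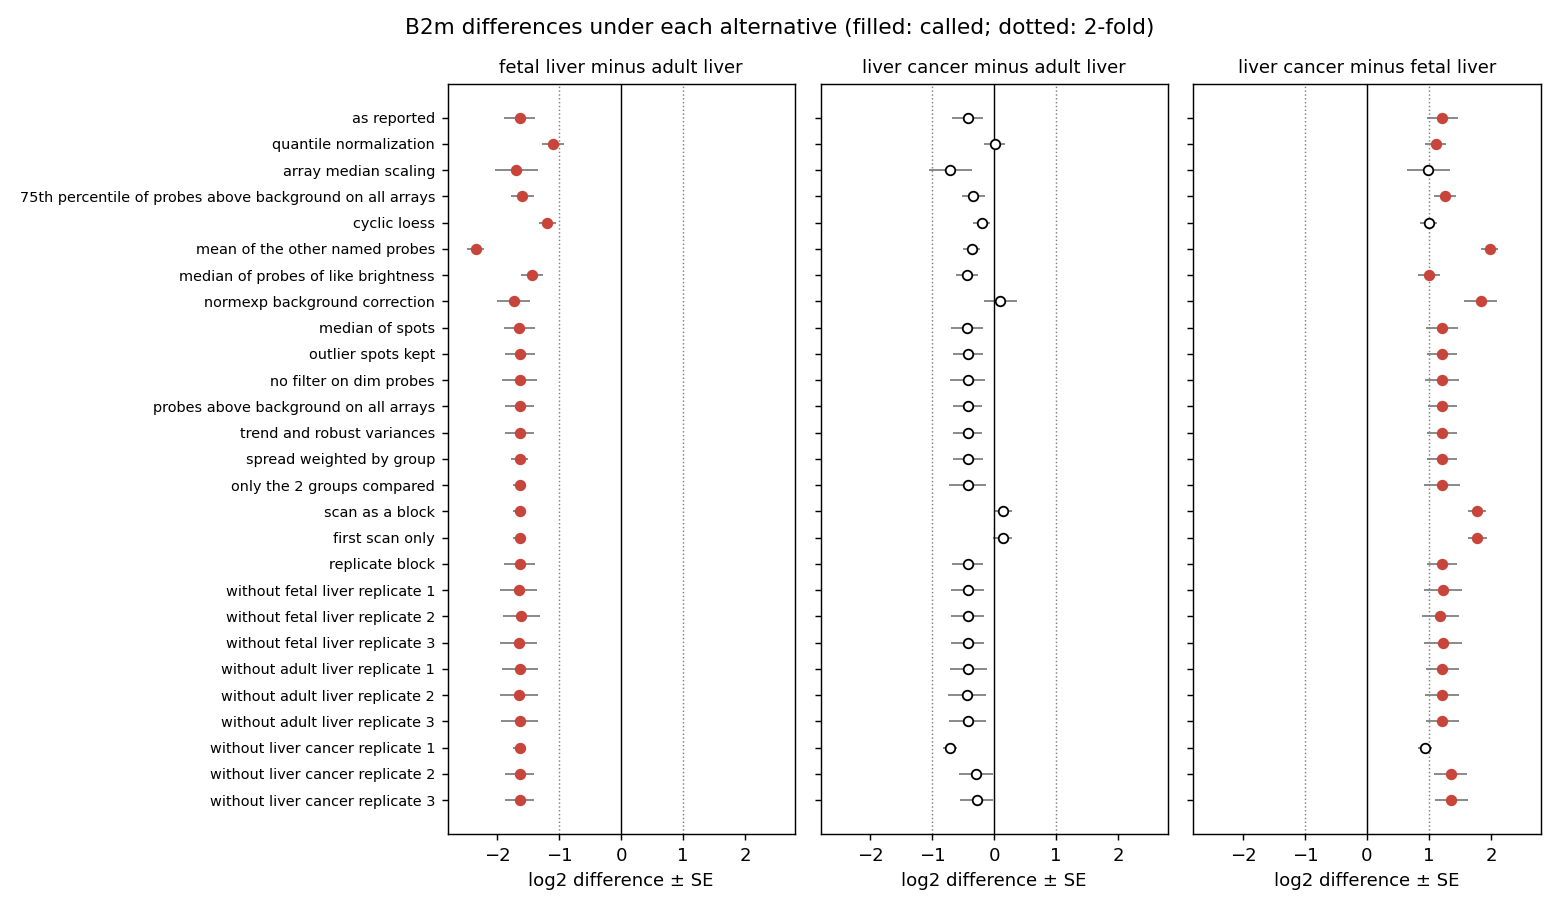
Log2 difference of B2m ± SE in the 3 comparisons (n = 3 per group unless arrays are left out), as reported and under each other setting; filled points were called by limma, dotted lines mark 2-fold. Fetal liver was lower than adult liver at each setting shown (-2.35 to -1.10), the liver cancer minus adult difference lay on both sides of 0 (-0.71 to 0.14), and liver cancer was higher than fetal liver (0.93 to 1.98) with 3 settings below the 2-fold minimum.

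The 2 scans differed with brightness as well as in overall signal. Tested probes were put in 10 equal classes by mean level, and B2m belonged to the brightest. In that class of 3411 probes, the median difference from the adult mean was 0.28 on liver cancer replicate 1, -0.39 on replicate 2 and -0.36 on replicate 3. B2m itself differed by 0.14, -0.70 and -0.72. Set against the median of its class, B2m lay at -0.14, -0.30 and -0.36 on the 3 liver cancer arrays, and at -1.48, -1.44 and -1.50 on the fetal arrays. A separate setting scaled each array to the median of probes of like brightness, and its values are not those of the class medians above. There the liver cancer minus adult difference was -0.44 ± 0.17 (SE, limma adjusted p = 0.0894) and again did not pass. Whether the scan produced the split between liver cancer arrays was not tested, since scan and sample differ together.

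**Figure D4:**
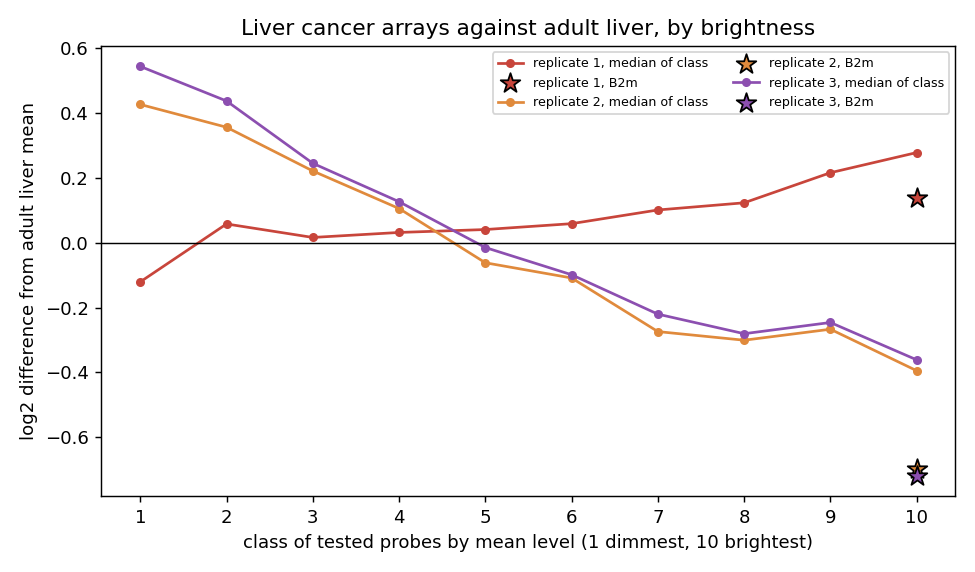
Log2 difference of each liver cancer array from the adult mean, as the median of 10 classes of tested probes from dimmest to brightest (lines) and for B2m (stars). In the brightest class the medians are 0.28 on replicate 1 and -0.39 and -0.36 on replicates 2 and 3, and B2m lies below the median of its class on each of the 3 arrays.

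Ratios of B2m to another probe on the same array are free of any scaling by 1 constant per array, though not of quantile normalization or background correction. The other 14 probes with an accession, mostly genes in general use as references, were printed as 20 spots too. From adult to fetal liver, B2m was lower relative to 12 of the 14 and higher relative to 2, with no overlap between the groups for any of the 14. Of all tested probes 11.9% had a lower difference than B2m. B2m thus fell relative to most probes, and the tally is not particular to these genes. Ratios of B2m to all other tested probes did not overlap for 88.4% of probes, so a lack of overlap is common here. Relative to Hprt, a purine salvage enzyme, the log2 ratio was lower by 2.03 in fetal liver, where it lay at -2.02, -2.03 and -2.04 relative to the adult mean. Relative to Gapdh, a glycolytic enzyme, the change was -1.28, and relative to Ppia, a protein-folding enzyme, it was -1.54. The exceptions were Gk (1.81) and Ldhal6b, a lactate dehydrogenase-like gene (0.73), which were themselves lower in fetal liver (by -3.45 and -2.37). Ldhal6b was dim in fetal liver, at a level of -2.40. With normexp its own difference was -0.78 and was not called (limma adjusted p = 0.237), while that of Gk was -2.15. With normexp the change relative to Ldhal6b turned to -0.96 and that relative to Gk was 0.41, so that B2m was lower relative to 13 of the 14. With 3 arrays against 3 an exact permutation test cannot go below p = 0.1, so no p is given for single ratios.

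In liver cancer 11 of the 14 ratios varied less between arrays than the scaled level did, the exceptions being Gk, Ldhal6b and Nono. This count was not set against all other tested probes, so it cannot be read as particular to B2m and these genes. The median of the brightest class also split between these arrays (0.28, -0.39 and -0.36 from the adult mean on replicates 1, 2 and 3). Relative to Hprt, B2m lay 0.26, 0.31 and 0.30 above the adult mean on liver cancer replicates 1, 2 and 3, although its scaled levels spanned 9.60 to 10.45. Relative to Rpl13a, a ribosomal protein gene, it lay at -0.94, -0.93 and -0.91. The SD of the ratio in liver cancer was 0.03 for Hprt and 0.02 for Rpl13a, against 0.49 for the scaled level. The direction depended on the partner: B2m was lower relative to 7 of the 14 genes and higher relative to 7. Of all tested probes only 31.4% had a lower difference than B2m, so the even split does not hold for the array as a whole. The groups did not overlap for 10 of the 14 (43.5% of all other tested probes). Relative to Ppia the mean change was 0.07, with overlap. On liver cancer replicate 1 alone B2m was lower relative to 8 genes and higher relative to 6. There the change was 0.16 relative to Ldhal6b (-1.63 over all 3 arrays), -0.06 relative to Gapdh (0.32), -0.0014 relative to Ppia and 0.71 relative to Gk (0.07). Without replicate 1 the tally was also 8 and 6, and the change relative to Gk was -0.25. Under quantile normalization it was 6 and 8, and the change was 0.27 relative to Gusb (-0.24 as reported), 0.79 relative to Hprt and -0.32 relative to Rpl13a. Compared with fetal liver, B2m in liver cancer was higher relative to 12 of 14 genes, by 1.56 (Gusb, a lysosomal enzyme) to 3.60 (Hsp90ab1, a chaperone), and lower relative to Gk (-1.74) and Ldhal6b (-2.36). The tally of 12 and 2 was the same on replicate 1 alone, without it, with normexp and under quantile normalization. The size for Gk and Ldhal6b was not: it was -1.10 and -0.57 on replicate 1 alone, -0.32 and -0.0047 with normexp, and -2.06 and -3.25 without replicate 1. None of the 14 overlapped (70.1% of all other tested probes did not). Of all tested probes 81.1% had a lower liver cancer minus fetal difference than B2m, so this tally is not particular to these genes either. A changed ratio shows unequal change of a pair of genes and not which of them moved. Several of the 14 genes, among them Gapdh, Ppia, Rpl13a, Hsp90ab1 and Ldhal6b, have near-identical copies in the genome. Signal from copies was not separated for any of the 14.

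**Figure D5:**
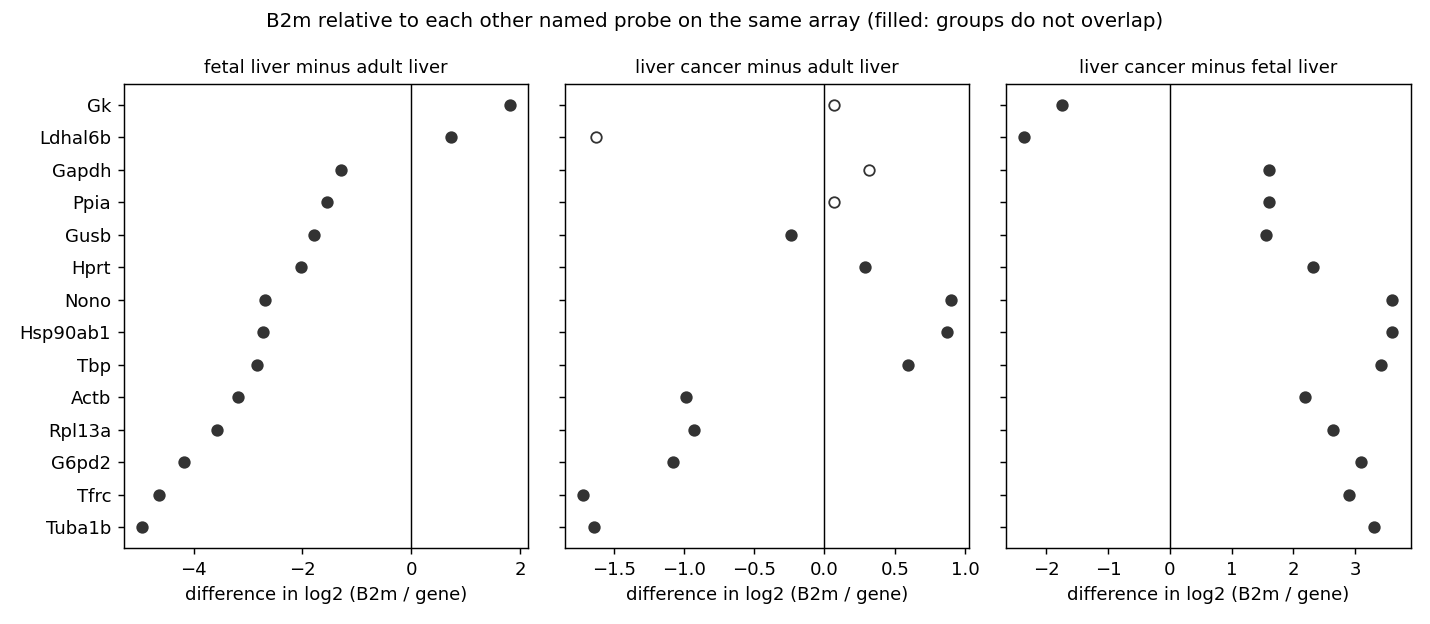
Difference between groups in the log2 ratio of B2m to each of the other 14 named probes on the same array (mean of 3 arrays minus mean of 3 arrays; axes differ between panels); filled points mark ratios whose groups do not overlap. B2m is lower in fetal than in adult liver relative to 12 of 14 genes, and higher in liver cancer than in fetal liver relative to 12 of 14. Between liver cancer and adult liver it is split 7 to 7 (8 lower and 6 higher on replicate 1 alone, 6 and 8 under quantile normalization). Of all tested probes, 11.9% (fetal minus adult), 31.4% (liver cancer minus adult) and 81.1% (liver cancer minus fetal) had a lower difference than B2m.

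No other named gene had a profile close to that of B2m. Likeness was measured as the root mean square difference between log2 profiles over the 9 arrays, each centred on its own mean, for 33243 tested probes with a value on every array. The named genes nearest to B2m were Gapdh (0.71), Ppia (0.75) and Gusb (0.80), and 8272 probes lay nearer than Gapdh. Over the group means alone the 3 distances were 0.69, 0.74 and 0.80. For Gapdh the fetal level was 10.24 ± 0.19, the adult level 10.60 ± 0.01 and the liver cancer level 9.85 ± 0.82 (SD, n = 3). None of these 3 genes was called in any comparison. Gk came next (0.89) and, unlike these 3, had the direction of B2m in all 3 comparisons. Its differences were -3.45 (fetal minus adult), -0.50 (liver cancer minus adult) and 2.96 (liver cancer minus fetal). The most distant named gene was Tuba1b, an alpha-tubulin (2.07), which was higher in fetal than in adult liver by 3.31 log2.

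Some probes without a gene name came much closer, but 33229 of these were compared and only 14 named ones. Within 0.1 of B2m lay 13 probes, 0.0391% of the 33243. The nearest were ASMM10P039583 (0.06), ASMM10P021664 (0.06) and ASMM10P045190 (0.07). ASMM10P039583 differed by -1.63 between fetal and adult liver and by -0.48 between liver cancer and adult liver. ASMM10P021664 differed by -1.63 and -0.41, and ASMM10P045190 by -1.50 and -0.38. All 3 were well above background on the 9 arrays. The transcripts they detect are not named in the files, and probes of B2m itself may be among them. Probes were ranked by this likeness over all arrays, so it is a description, and scan, age and tissue are shared by all profiles.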

How the data were processed

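The deposited intensity values are processed signals of 62939 spots on each of 9 arrays, made with Agilent Feature Extraction 11.0.1.1 per the file headers, which subtracts background within each array and does not scale arrays to each other. Raw median intensity of spot and background, and marks for outliers, saturation and signal well above background, were deposited as well. The estimated error of each spot was not used for any result. Control spots (1439) and 300 negative control spots were set aside. Spots marked as outliers (0.31% to 1.43% of spots) were left out, log2 signals were averaged over the spots of a probe, and each array's 75th percentile was subtracted. Probes well above background on at least 3 arrays with at least 2 usable arrays per group were tested (34103 of 60915).

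The 3 groups were fitted together with limma 3.58.1 in R 4.3.3, without covariates, with the Benjamini-Hochberg adjustment applied to all tested probes within each comparison. All 15 accessions on the array matched a RefSeq symbol. The number of arrays limits precision. The procedure was tested on simulated data. B2m, the gene lists and the tests were chosen with earlier results of these data known. Genes were named by a rule: B2m, the 3 nearest and the farthest named profile, the 3 nearest unnamed probes, and members of the fixed lists. Genes used to show a within-array ratio were named after their values were seen. Alternatives comprised other scalings, background correction, filters, spot summaries, variance models, blocks for scan and replicate number, and leaving out each array. Ratio alternatives were chosen after seeing the data. The files hold no mean signal, so normexp (offset 50) was run on median signals. Promoter sequence came from RefSeq (GRCm38.p6), and probe sequences were not used here.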

Additional observations from a re-analysis of the deposited data

How the results depend on the processing

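The call of B2m as lower in fetal than in adult liver was kept in all 26 fits with another setting, from -2.35 when scaled to the other named probes to -1.10 under quantile normalization, and leaving out 1 array at a time gave -1.65 to -1.61. Many of these fits are not separate checks of this difference. Probe filters, variance models, blocks and leaving out liver cancer arrays keep the same fetal and adult values. There the difference had to stay at -1.64 and only its SE could change. For liver cancer against fetal liver, array-median scaling and cyclic loess put the difference at 0.99, under the 2-fold minimum. Leaving out 1 array gave 0.93 to 1.36, and the lowest value, without liver cancer replicate 1, was the only such fit to lose the call. For liver cancer against adult liver 0 of 26 fits made a call. The sign turned under quantile normalization (0.0072), with normexp (0.10), and with scan as a block or within the first scan (0.14 in both), and leaving out 1 array gave -0.71 to -0.28. The last 2 settings use liver cancer replicate 1 alone for the difference. The cause of the other changes was not tested. In an exact permutation test, two-sided, on B2m alone, the differences of -1.64 and 1.21 reach p = 0.1, which is the smallest that 3 arrays against 3 allow. With replicate number as a block the differences stay at -1.64, -0.43 and 1.21 by design, since each group holds 1 array per number. Only the SE could change, and no call changed (limma adjusted p = 0.00132, 0.227 and 0.0052). The labels state no pairing of samples by number. Deviations of same-numbered arrays correlated at -0.17 to 0.31, above 0.1 in 4 of 9 pairs. Those of differently numbered arrays correlated at -0.332 to 0.245, above 0.1 in 5 of 18 pairs. With so few pairs these values do not settle whether the numbers pair samples. Each array read B2m well above background, and with 3 arrays a group precision is limited. The normexp setting, which also used median signals and an offset, moved the liver cancer minus fetal difference from 1.21 to 1.84. The same difference in the ratio of B2m to Hprt went from 2.32 to 2.39 and to Tuba1b stayed at 3.30. For the dimmer Gk and Ldhal6b it went from -1.74 to -0.32 and from -2.36 to -0.0047. Which part of the setting moved the scaled level was not tested. Other settings also moved the share of all probes called: normexp gave 17.4% for fetal against adult liver (39.6% as reported), and the first scan alone gave 18.2% for liver cancer against adult liver (24.1%). The B2m ratios were recomputed after the data were seen.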
